A study of Mus musculus with 30 samples.

Results

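The genes described here are 35 genes of DNA replication and S phase, taken by symbol from an expression array experiment on mouse CD8+ T cells. All 35 were measured, among 19938 genes tested. They were grouped by their part in copying the genome: 9 genes of helicase loading, 4 of helicase activation, 6 of primase and the replicative polymerases, 6 of the sliding clamp, its loader and single-strand binding, 2 of Okazaki fragment maturation, 5 of nucleotide supply and 3 of replication-coupled chromatin.

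The cells were Pmel-1 CD8+ T cells from the spleens of adult female C57BL/6 mice aged 6 to 12 weeks. Pmel-1 mice carry a transgenic T cell receptor against the melanocyte antigen gp100. Naive cells, labelled TN, came from Ly5.1 Pmel-1 Tg mice, and cells differentiated in vitro, labelled TMem, came from Ly5.2 Pmel-1 Tg mice, so TN and TMem also differ in this congenic marker and the marker's part cannot be told apart from the cell state's. Each was taken unstimulated (0 h) or after 18 h or 96 h with antibodies to CD3 and CD28 plus interleukin 2, stimulated either alone or in a mixture of both ("mix"), and was purified by cell sorting. Each of the 10 groups had 3 arrays, which the labels call biological repeats without saying which mice they came from, so p-values measure the spread between these samples.

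DNA replication begins with the origin recognition complex, Cdc6 and Cdt1 loading the Mcm2 to Mcm7 helicase onto origins. Mcm10, Cdc45 and the GINS complex then turn the loaded helicase on, polymerase alpha-primase, epsilon and delta copy the strands, and Pcna, loaded by replication factor C, holds the polymerases on DNA. Naive T cells rest outside the cell cycle and carry little of this machinery, activated T cells build it before their first division, and many of its genes are targets of the E2F transcription factors.

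Promoter sequence was looked at because E2F sites are the textbook feature of these genes, and because the members did not all move at the same time. RefSeq windows of 250 bases before to 50 bases after the annotated start (GRCm38.p6) were found for 30 of the 35 members. Those without a window were Mcm4, Gins1, Gins2, Pole and Rfc2. The counts below thus leave out Mcm4, Gins2 and Pole, called higher in TN cells at 18 h, and Rfc2, called lower. The windows were searched on both strands for the E2F letters TTTCCCGC, TTTCGCGC, TTTGCCGC or TTTGGCGC, which can overlap each other on opposite strands. These letters were present in 13 of the 30 members (43.3%), in 10 of 33 other replication genes (30.3%), in 1 of 22 mitosis genes (4.55%) and in 704 of all 27025 genes with a window (2.6%). The letters TTTGAA, the core of the cell cycle homology region of mitotic promoters, gave the opposite order, with 3 of 30 members (10%), 17 of 22 mitosis genes (77.3%) and 20.2% of all genes. CCAAT was found in 17 of 30 members (56.7%), 19 of 22 mitosis genes (86.4%) and 41.1% of all genes. Of the 13 members with E2F letters, 8 were called higher and 1 lower in TN cells at 18 h than at 0 h, and of the 17 without them 5 higher and 2 lower, where 17.1% of all genes were called higher and 16.7% lower. Of those 5, Mcm10, Cdc45, Tk1 and Chaf1a did not keep the call under every scaling used below, and Mcm2 did. The 8 with letters kept it. In TN of the mix against TN alone at 18 h, 3 of the 13 and 6 of the 17 were called higher, where 6.30% of all genes were. In TMem at 18 h against 0 h, 3 of the 13 were called higher and 3 lower, and 1 of the 17 higher and 5 lower. There 18.0% of all genes were called higher and 17.3% lower. These counts were not tested against each other. A match is a run of letters and not a measured binding site, and a window without a match says only that these letters are not in it.

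The sequences below run 5′ to 3′ on each gene's strand and end at the last base before the annotated start. Mcm5 (chr8:75109346-75109508, plus strand), Mcm6 (chr1:128359706-128359825, minus), Orc1 (chr4:108579394-108579453, plus) and Pola1 (chrX:93632156-93632303, minus) are shown as members that hold the letters and rose in TN cells by 18 h. Mcm2, which rose furthest at 18 h, has a window with no E2F letters. Cdc6 (chr11:98908003-98908150, plus) is shown because it holds the letters and was not called higher at 18 h, and Rfc3 (chr5:151651209-151651268, minus) because it was higher at 18 h in mixed than in separate culture. Rrm2 (chr12:24708194-24708253, plus) and Mcm10 (chr2:5012792-5012899, minus) hold no E2F letters in their windows and had most of their rise after 18 h. Capitals mark E2F letters, read on either strand, in the sequences of Mcm5, Mcm6, Orc1, Pola1, Cdc6 and Rfc3, and CCAAT in those of Rrm2 and Mcm10.
Mcm5: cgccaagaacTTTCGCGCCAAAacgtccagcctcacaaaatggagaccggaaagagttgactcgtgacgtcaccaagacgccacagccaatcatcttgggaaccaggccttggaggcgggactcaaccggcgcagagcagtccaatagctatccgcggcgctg
Mcm6: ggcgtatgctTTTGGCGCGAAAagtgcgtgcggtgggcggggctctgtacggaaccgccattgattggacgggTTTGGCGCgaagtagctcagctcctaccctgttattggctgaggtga
Orc1: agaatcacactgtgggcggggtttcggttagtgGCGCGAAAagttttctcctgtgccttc
Pola1: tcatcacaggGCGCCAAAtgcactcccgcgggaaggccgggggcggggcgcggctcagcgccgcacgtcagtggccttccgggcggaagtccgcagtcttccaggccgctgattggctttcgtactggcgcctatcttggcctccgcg
Cdc6: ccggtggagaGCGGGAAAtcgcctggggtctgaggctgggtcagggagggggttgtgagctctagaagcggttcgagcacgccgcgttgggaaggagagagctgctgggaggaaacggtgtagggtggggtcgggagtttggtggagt
Rfc3: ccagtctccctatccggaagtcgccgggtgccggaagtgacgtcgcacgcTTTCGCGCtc
Rrm2: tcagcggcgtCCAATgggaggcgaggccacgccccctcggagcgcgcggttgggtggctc
Mcm10: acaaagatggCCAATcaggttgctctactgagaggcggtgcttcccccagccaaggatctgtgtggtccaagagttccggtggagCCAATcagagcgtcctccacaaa

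Values are the deposited log2 probe set values, so a difference of 1 is a doubling of signal. A gene is called changed when limma's moderated test, adjusted by the Benjamini-Hochberg method over all 19938 genes, gives an adjusted p under 0.05. Array medians lay between 6.76 and 6.94. All 9 measured CD8 T cell markers were above the array's lower quartile in all 10 groups. Of 10 measured B cell markers 2 or 3 were below it in each group, Cd79a and Ms4a1 always, and the rest above. Among the members, Orc1 in unstimulated TN cells was the only group mean below that quartile, so differences from it are lower bounds. Replicate 1 of unstimulated TN cells stood apart for part of the set. In that group 11 members spread over more than 0.5 log2 units, and in 11 of those 11 replicate 1 was the farthest array. Counts of called members over the whole set that use this group are therefore also given without that array.

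The 35 genes separated the arrays into a low state and a high state. Their mean log2 level was 8.22 ± 0.07 (SD, n = 3) in unstimulated TN cells, 8.45 ± 0.03 in TN cells stimulated alone for 18 h and 8.62 ± 0.07 in TN cells of the 18 h mix. The other 7 groups, which are TN at 96 h and every TMem group, lay between 10.01 and 10.31. In 21 members the lowest group mean was unstimulated TN, in 12 it was TN alone at 18 h and in 2 TN of the mix at 18 h. The highest group mean was TN alone at 96 h in 19 members and TN of the mix at 96 h in 7. Since these are bulk samples, a smaller share of cycling cells and less RNA per cell cannot be told apart.

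**Figure D1:**
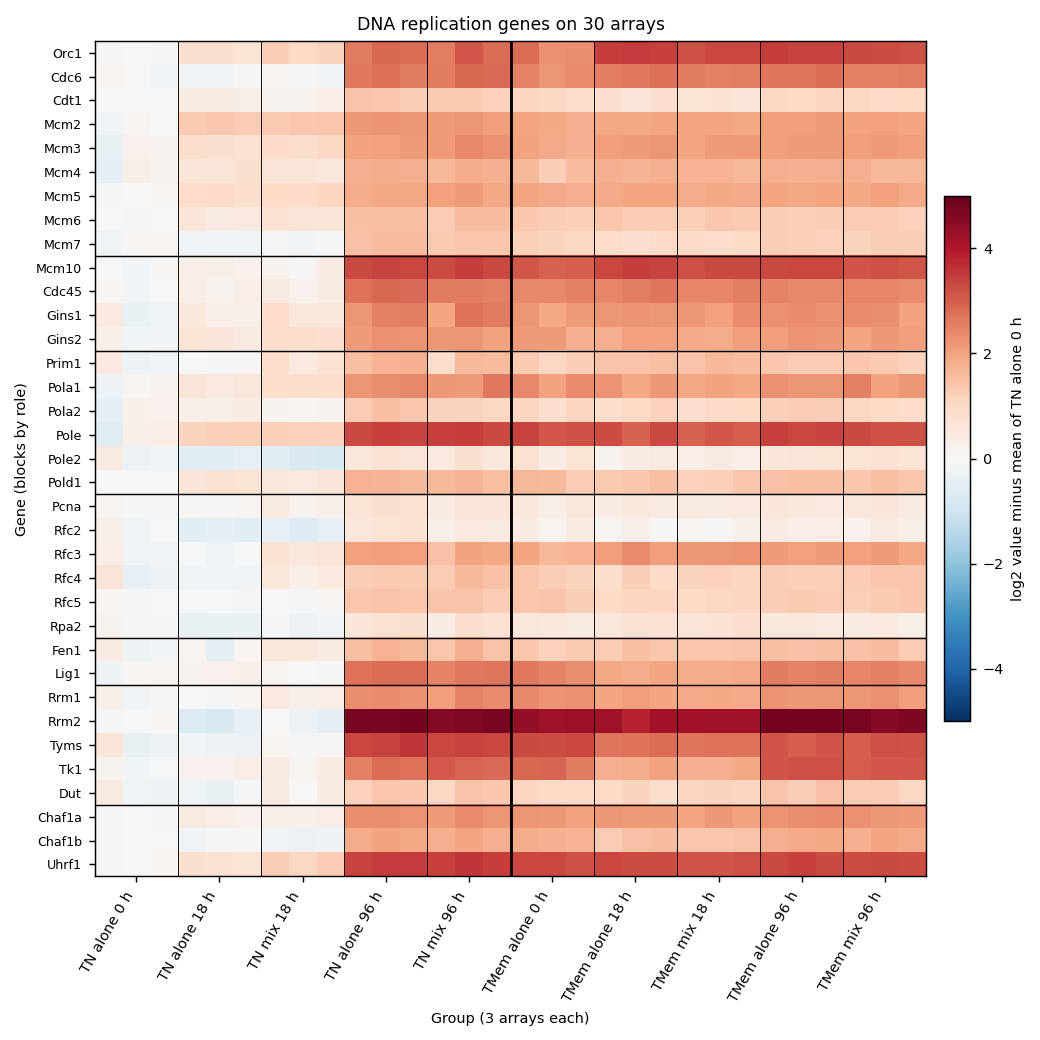
Log2 value of each of the 35 replication genes on each of the 30 arrays, minus that gene's mean over the 3 unstimulated TN arrays (colour scale, log2 units). Rows are genes in blocks by role and columns are arrays by group; the first 9 columns (TN at 0 h and 18 h) are pale, and TN at 96 h and all TMem columns are dark for most genes, most of all Rrm2.

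Unstimulated TMem cells carried far more of these transcripts than unstimulated TN cells. All 35 members were called higher in TMem, where 35.9% of all genes were called in either direction and 18.4% higher. The median difference over the members was 1.89 log2 units, against 0.02 over all genes. The gap was not particular to the members. All 24 measured mitosis genes were called higher in TMem as well, with a median of 3.93. Of 21 measured S phase control genes 17 were called higher and 2 lower. Rrm2, the regulatory subunit of ribonucleotide reductase, which makes deoxynucleotides, had log2 values of 7.56, 7.63 and 7.76 in TN and 12.04, 11.90 and 11.95 in TMem. The 2 groups were far apart, with a difference of 4.32 (SE 0.10), or 19.9-fold, and an adjusted p of 1.06e-22. Tyms, thymidylate synthase, stood at 8.26, 7.29 and 7.37 in TN and at 10.96, 10.88 and 10.96 in TMem, 9.81-fold higher (SE 0.14 log2). Uhrf1, which binds hemimethylated DNA behind the fork, went from 6.30, 6.38 and 6.48 to 9.71, 9.74 and 9.58, a 9.79-fold difference (SE 0.08 log2). These and Pole were the widest gaps, and in all of them the lowest TMem array was above the highest TN array.

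The gap was smallest for Rfc2, Pcna, Rpa2 and Pole2. Pcna, the sliding clamp, was at 12.01, 11.81 and 11.85 in TN and 12.44, 12.18 and 12.45 in TMem, 1.38-fold apart (adjusted p = 4.64e-05). Rfc2, a clamp loader subunit, differed by 0.31 (SE 0.11, adjusted p = 0.0222) and its TN and TMem arrays overlapped, as did those of Pole2, the second subunit of polymerase epsilon. With each array centred on its median 34 of the 35 were called, and Rfc2 was lost, as it was without any of 4 of the 6 arrays (replicates 2 or 3 of TN, 1 or 3 of TMem). Without replicate 1 of the TN group 35 were called, with a median of 1.84. In TMem at 0 h, summed linear signals of mast cell and basophil markers (5 of 5 measured) ran from 721 to 1481 against 300 to 363 in TN at 0 h, with 1 of the 5 near background in each group. Erythroid and platelet markers (5 of 7 measured) ran from 829 to 1014 against 447 to 527, myeloid markers from 1391 to 2652 against 1046 to 1132, and NK cell markers from 4248 to 4714 against 3547 to 3715, with 4 of the 6 NK genes near background in both. By gene, 7 of the 13 myeloid markers were higher in TMem and 6 lower, and 2 of the 6 NK cell markers higher and 4 lower. Of the 5 mast cell and basophil markers 3 were higher and 2 lower, with a median of 0.25 and a largest difference of 3.25. Of the 5 erythroid and platelet markers 4 were higher and 1 lower. CD8 T cell markers ran from 29388 to 32988 against 34891 to 40488. B cell markers (1220 to 1392 against 1338 to 1630) and CD4 T cell markers (500 to 711 against 567 to 647) overlapped. Their part in the result was not tested.

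**Figure D2:**
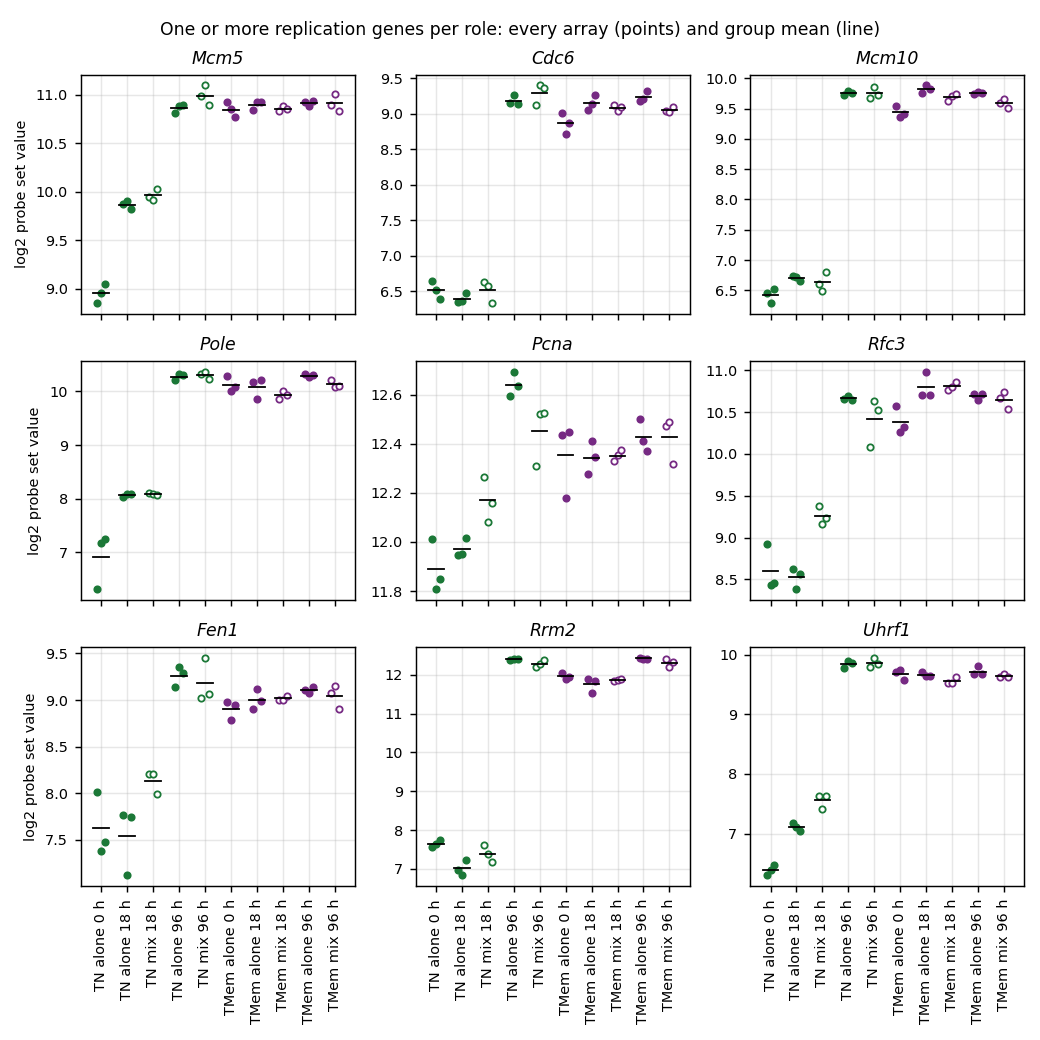
Log2 values of 9 replication genes, chosen to cover the roles, on every array (points; filled for cells cultured alone, open for mixed culture; green TN, purple TMem) with the group mean (line). Mcm5, Pole and Uhrf1 have TN values at 18 h between those at 0 h and 96 h, Cdc6 and Rrm2 do not, and Rfc3 and Fen1 are higher at 18 h in mixed than in separate TN culture.

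After 18 h the TN cells had raised only a part of the set. Of the 35 members, 16 were called higher and 4 lower than at 0 h, where 33.8% of all genes were called, 17.1% higher and 16.7% lower. The median over the members was 0.26 log2 units, against -0.02 over all genes. The split moved with the scaling: quantile normalization gave 13 higher and 9 lower, and centring each array on its median, which puts the median of all genes at -0.15, gave 12 higher and 6 lower. Called higher under all 3 scalings were 12 members, namely Orc1, Cdt1, Mcm2, Mcm3, Mcm4, Mcm5, Mcm6, Gins2, Pola1, Pole, Pold1 and Uhrf1. Called lower under all 3 were Pole2, Rfc2, Rpa2 and Rrm2. Without replicate 1 of the 0 h group the counts were 17 higher and 4 lower.

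In helicase loading 7 of 9 members were called higher and none lower, in helicase activation 3 of 4, in primase and polymerases 3 of 6 with 1 lower, and in replication-coupled chromatin 2 of 3. The roles were not tested against each other. Mcm2, a subunit of the helicase ring, rose furthest, from 9.06, 9.36 and 9.20 at 0 h to 10.50, 10.54 and 10.48 at 18 h. That is 2.46-fold (log2 difference 1.30, SE 0.07, adjusted p = 2.06e-14). Mcm5 went from 8.86, 8.96 and 9.05 to 9.87, 9.90 and 9.82, or 1.88-fold. The arrays of the 2 times did not touch in either gene. Mcm3 rose from 7.98, 8.54 and 8.51 to 9.21, 9.16 and 9.05, a difference of 0.80 (SE 0.10). The lowest array of Mcm3 was replicate 1 of the 0 h group, as it was for Pole. Mcm4 rose by 0.68 (0.43 without that replicate), Mcm6 by 0.51, Cdt1 by 0.34 and Orc1, the largest subunit of the origin recognition complex, by 0.75.

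The 2 helicase loading members that were not called were Cdc6 and Mcm7. Cdc6, the ATPase that recruits the helicase to origins, stood at 6.65, 6.51 and 6.39 and then 6.36, 6.37 and 6.47, with a 95% interval of the difference from -0.31 to 0.08. Mcm7 stood at 10.10, 10.44 and 10.45 and then 10.18, 10.17 and 10.13 (difference -0.17, SE 0.08, adjusted p = 0.0873), and was called lower with quantile normalization, with centring and without replicate 1 of the 0 h group (-0.29, adjusted p = 7.56e-04 by limma). The intervals of Mcm2 (1.16 to 1.44) and Mcm7 (-0.33 to -0.01) lay well apart.

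Helicase activation and polymerase genes were divided. Gins2, part of the GINS complex, rose by 0.59 (SE 0.11, adjusted p = 5.67e-05). Mcm10 and Cdc45 rose by 0.28 and 0.26, calls that were lost with either other scaling and without replicate 2 of the 0 h group (adjusted p = 0.0560 for Mcm10 and 0.0756 for Cdc45). Pole, the catalytic subunit of polymerase epsilon, had values of 6.32, 7.17 and 7.25 at 0 h and 8.03, 8.09 and 8.10 at 18 h, a 2.23-fold rise (adjusted p = 1.77e-07). Pold1, the catalytic subunit of polymerase delta, rose by 0.69 (SE 0.09), and Pola1, that of polymerase alpha, by 0.57 (SE 0.13). The catalytic subunits of all 3 replicative polymerases thus rose. The accessory subunit Pole2 fell, from 9.72, 9.01 and 9.13 to 8.70, 8.70 and 8.87 (-0.53, adjusted p = 0.00172), and by 0.31 without replicate 1 of the 0 h group. Prim1, the catalytic subunit of primase, had 8.96, 8.15 and 8.26 and then 8.48, 8.37 and 8.50, with an interval from -0.34 to 0.33.

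The clamp group had no called rise at 18 h. Pcna was at 11.95, 11.95 and 12.02, a difference of 0.08 from 0 h (interval -0.09 to 0.25). Rfc2 fell from 9.17, 8.69 and 8.91 to 8.34, 8.45 and 8.40, by 0.53 (adjusted p = 1.89e-04) and Rpa2, of the single-strand binding protein, by 0.35 (adjusted p = 0.00778, or 0.0711 without replicate 1 of the 0 h group). Rfc3 had 8.63, 8.38 and 8.56 after 8.92, 8.43 and 8.46, with overlapping arrays. Fen1, the flap endonuclease that trims Okazaki fragments, had 8.02, 7.38 and 7.48 at 0 h and 7.76, 7.12 and 7.74 at 18 h and was not called.

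In nucleotide supply 1 member was called lower and 1 higher. Rrm2 fell below its resting level, to 6.98, 6.83 and 7.23 from 7.56, 7.63 and 7.76, by 0.64 log2 units (SE 0.10, adjusted p = 1.34e-05). Tyms stood at 7.50, 7.39 and 7.36 and was not called, and its 0 h values were spread by the high replicate 1. Rrm1, the large subunit of the reductase, moved by 0.01, with an interval from -0.19 to 0.21, and was not called without replicate 1 of the 0 h group either. Tk1, thymidine kinase, was called higher by 0.26 (adjusted p = 0.0451), a call lost under 10 of 14 alternatives, and its second array row stood at 6.20 and 6.26. In replication-coupled chromatin Uhrf1 rose from 6.30, 6.38 and 6.48 to 7.18, 7.12 and 7.05, by 0.73 (SE 0.08, adjusted p = 8.38e-09), and Chaf1a, of the histone chaperone CAF-1, by 0.34, a call that did not hold under all 3 scalings.

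A separate list held genes of nucleotide synthesis and salvage that are not members. Of 18 such genes 16 were measured, and 11 were called higher and 3 lower in TN at 18 h, with a median of 1.12. Cad, which starts pyrimidine synthesis, rose by 2.63 (SE 0.10, adjusted p = 5.85e-18). Shmt1, a serine hydroxymethyltransferase of one-carbon metabolism, rose by 1.99, and Umps, which completes uridine monophosphate, by 1.39. Between 18 h and 96 h this list had 4 called higher and 3 lower (median -0.02), and all 5 nucleotide supply members rose in that interval. Among 40 other replication genes 12 were called higher and 11 lower at 18 h. Dna2, a nuclease and helicase, rose by 1.25, Ticrr, which helps start origins, by 0.86, and Gins4 fell by 0.62.

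Genes that control entry into S phase were likewise mixed, with 7 higher, 7 lower and 7 not called among 21 measured. Tfdp1, the dimer partner of the E2F factors, rose by 1.31 (SE 0.08), and E2f1 by 0.34. Ccne1, cyclin E1, fell by 0.60, E2f2 by 0.61 and Ccna2, cyclin A2, by 0.26. Cdkn1b, the inhibitor p27 of cyclin-dependent kinases, fell by 0.57 (SE 0.08). Of 24 mitosis genes 1 was called higher and 5 lower, and the proliferation marker Mki67 moved by -0.29 (SE 0.27, adjusted p = 0.465). Summed B cell markers were lower in TN at 18 h than at 0 h (1003 to 1060 against 1338 to 1630), as were NK cell markers (2829 to 3230 against 3547 to 3715), and CD4 T cell markers were higher (708 to 775 against 567 to 647). By gene, 3 of the 10 B cell markers were higher and 7 lower, with 1 called in each direction. Of the 6 NK cell markers 1 was higher and 5 lower, and 5 were near background at 18 h and 4 at 0 h. Of the 5 CD4 T cell markers 3 were higher, 1 of them called, and 2 lower. Their part in the result was not tested.

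**Figure D3:**
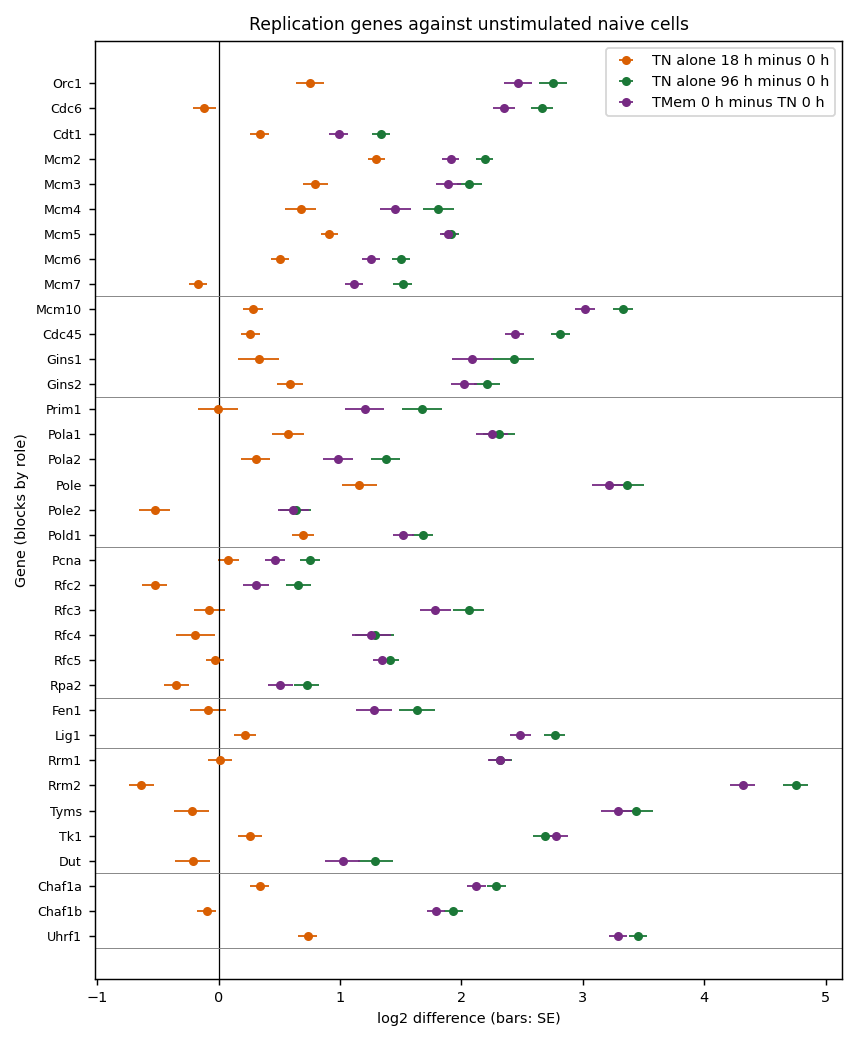
Log2 difference from unstimulated TN cells (horizontal axis; bars, SE of the fit) of each replication gene in TN cells after 18 h alone (orange), TN cells after 96 h alone (green) and unstimulated TMem cells (purple), n = 3 arrays per group. The orange points run from -0.64 for Rrm2 to 1.30 for Mcm2, while all green and purple points are above 0 and lie near each other for most genes.

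By 96 h the whole set was up in TN cells. All 35 members were called higher than at 0 h, with a median of 2.06, where 36.4% of all genes were called, 18.6% higher. Rrm2 reached 12.39, 12.40 and 12.42, 27-fold above its 0 h level and 42-fold above its 18 h level (log2 5.39, SE 0.10, adjusted p = 1.74e-24). Tyms reached 10.97, 11.04 and 11.21, a rise over 0 h of 3.44 (SE 0.14). Uhrf1 reached 9.77, 9.88 and 9.86 (3.45 over 0 h) and Pole 10.21, 10.32 and 10.30 (3.36). Without replicate 1 of the 0 h group all 35 were still called, with a median of 1.97.

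The members that had lagged at 18 h made their rise in the second interval. All 35 were called higher at 96 h than at 18 h, where 24.4% of all genes were called and 11.3% higher, with a median of 1.69. Mcm10 went from 6.74, 6.72 and 6.65 to 9.72, 9.79 and 9.75, or 8.27-fold. Cdc6 went from 6.36, 6.37 and 6.47 to 9.15, 9.26 and 9.13, or 6.87-fold, and Cdc45 from 7.14, 7.02 and 7.17 to 9.58, 9.74 and 9.67, or 5.86-fold. None of these groups overlapped. Mcm2, the early riser, added 0.89 (SE 0.07), and Pcna, with 12.59, 12.69 and 12.64, added 0.67 (SE 0.08).

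The timing can be put as the part of each gene's 0 h to 96 h rise, in log2 units, that was present at 18 h. It was 59.3% for Mcm2, 47.8% for Mcm5, 41.4% for Pold1, 38.6% for Mcm3, 37.5% for Mcm4, 34.4% for Pole and 33.7% for Mcm6. In 10 members it was at least 25%, and in 14 it was 0 or below. Without replicate 1 of the 0 h group, an alternative chosen after seeing the data, 10 members were at 25% or more and 7 at 0 or below. Cdc45 had 9.29%, Mcm10 8.48%, Rrm1 0.546%, Cdc6 -4.39% and Rrm2 -13.4%, and the median was 9.29%. Without that replicate Mcm2 was at 57.9%, Mcm4 at 27.6%, Rrm1 at 5.73%, Cdc6 at -1.90% and Rrm2 at -14.5%, and the median was 10.9%. These shares are a description of group means. For Orc1, at 27.4%, the low 0 h level makes the share a rough one.

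The other genes of the pathway rose with the members by 96 h. Of the 40 other replication genes 30 were called higher than at 0 h and 4 lower, with a median of 1.05. Dna2 rose by 3.33, Asf1b, a histone chaperone, by 2.85 and Clspn, claspin of the replication checkpoint, by 2.77. Ccna2 rose by 4.59 (SE 0.07) and E2f1 by 2.35, while Cdkn1b fell by 0.94. All 24 mitosis genes were called higher, with a median of 3.75, Mki67 by 4.84 and Top2a, topoisomerase II alpha, by 4.82. In this 96 h TN group stimulated alone, summed markers of other cells were higher than in the 96 h TN group of the mix. B cell markers ran from 3401 to 3732 against 1452 to 1576 and myeloid markers from 2990 to 3232 against 1329 to 1550, where TN at 0 h had 1338 to 1630 and 1046 to 1132. Mast cell markers ran from 841 to 986 against 353 to 435 and CD4 T cell markers from 999 to 1028 against 514 to 613. Near background were 3 of 10 B cell and 2 of 13 myeloid markers in TN alone. In TN of the mix these were 2 and 4, with Cd79a, Ms4a1 and Adgre1 among them in both groups. In TN alone 4 of the B cell and 5 of the myeloid markers were called higher than at 0 h and none lower, where 18.6% of all genes were called higher. Their part in the result was not tested, and the 2 groups also differ in culture beside TMem.

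TMem cells kept the set high throughout, and at 18 h its genes were called about as often as genes in general. Compared with 0 h, 4 members were called higher and 8 lower, where 35.3% of all genes were called, 18.0% higher and 17.3% lower, and the median was -0.01 against -0.09 over all genes. Quantile normalization gave 3 higher and 11 lower and centring gave 6 higher and 5 lower. Under all 3 scalings Orc1, Mcm10 and Rfc3 were higher and Rfc5, Lig1, Tyms, Tk1 and Chaf1b lower. Orc1 rose from 8.27, 7.75 and 7.82 to 8.94, 8.97 and 8.90, by 0.99 (SE 0.11, adjusted p = 4.54e-08). Rfc3 rose from 10.58, 10.26 and 10.32 to 10.71, 10.98 and 10.70 and Mcm10 from 9.54, 9.37 and 9.41 to 9.75, 9.88 and 9.82, with no overlap in either. The Rfc3 call was lost without replicate 2 of either time (adjusted p = 0.0651 and 0.0799). Calls of Cdc6, Cdt1, Mcm7 and Rrm1 were each lost without at least 2 of the 6 arrays left out singly.

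The falls at 18 h in TMem were largest for thymidylate synthesis and ligation. Tk1 fell from 10.30, 10.33 and 10.03 to 9.25, 9.28 and 9.45, 1.85-fold lower (adjusted p = 2.07e-08). Its second array row fell as well, from 8.93 to 7.92. Lig1, DNA ligase 1, fell from 10.32, 10.19 and 10.03 to 9.62, 9.54 and 9.65 (by 0.58, SE 0.09) and Tyms from 10.96, 10.88 and 10.96 to 10.30, 10.37 and 10.41 (by 0.57, SE 0.14). Chaf1b, of CAF-1, fell by 0.35. Of the helicase subunits Mcm7 was called lower by 0.21, and the interval for Mcm2 was -0.10 to 0.19 and for Mcm5 -0.10 to 0.20. Rrm2 had 12.04, 11.90 and 11.95 and then 11.89, 11.55 and 11.85 and was not called (adjusted p = 0.136). Over the same interval mast cell and basophil markers went from sums of 721 to 1481 down to 273 to 300, and myeloid markers (13 of 13 measured) from 1391 to 2652 up to 2874 to 3270, and at 96 h myeloid markers ran from 4150 to 4592. Erythroid and platelet markers went from 829 to 1014 down to 385 to 422, and NK cell markers from 4248 to 4714 up to 5216 to 5596. Between 3 and 4 of the 13 myeloid markers, Adgre1 among them, were near background. By gene, 2 of the 13 myeloid markers were higher at 18 h than at 0 h and 11 lower, with a median of -0.11. At 96 h 5 were higher than at 0 h and 8 lower. Of the 6 NK cell markers 1 was higher at 18 h and 5 lower (median -0.13), and 4 were near background at both times. Their part in the result was not tested.

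Mitosis genes fell in TMem at this time. In TMem at 18 h 23 of 24 were called lower than at 0 h and none higher, with a median of -1.10, against -0.01 for the 35 members. Ccnb2, cyclin B2, fell by 1.57 (SE 0.08), Prc1, which bundles spindle midzone microtubules, by 1.61, Mki67 by 1.14 and Top2a by 1.01. In the next interval, from 18 h to 96 h, all 24 were called higher, with a median of 1.12. The control genes moved too: Cdkn1b fell by 1.62 (SE 0.08) and E2f2 by 1.46, while E2f1 rose by 0.28. Of the 16 measured nucleotide genes outside the set, 10 were called higher and 4 lower in TMem at 18 h, with Shmt1 at 1.58 and Ctps, a CTP synthase, at 1.83.

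**Figure D4:**
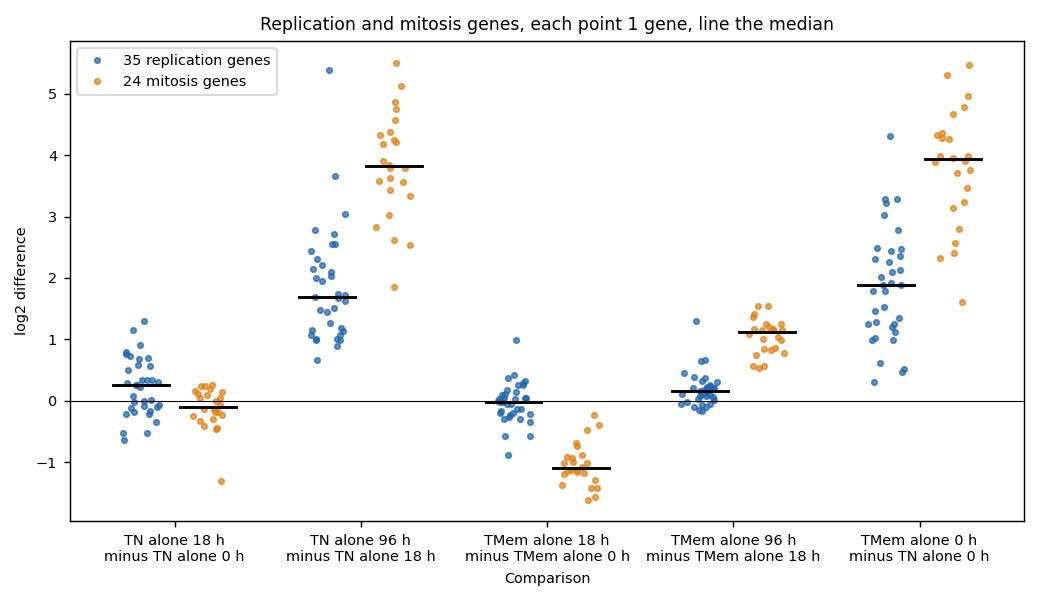
Log2 differences of the 35 replication genes (blue) and 24 measured mitosis genes (orange) in 5 comparisons; each point is 1 gene and the black line is the median of the list. In TMem the 18 h minus 0 h medians are -0.01 for replication and -1.10 for mitosis genes, and in TN the 96 h minus 18 h medians are 1.69 and 3.82.

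From 18 h to 96 h in TMem 7 members were called higher and none lower, where 24.4% of all genes were called and 14.6% higher, and the median was 0.16. Tk1 rose by 1.31 (SE 0.10, adjusted p = 2.73e-11) to 10.58, 10.66 and 10.65, Rrm2 by 0.66 to 12.44, 12.42 and 12.41 and Lig1 by 0.65 to 10.31, 10.18 and 10.27. The others were Chaf1b, Mcm7, Cdt1 and Rfc5, of which Cdt1 and Rfc5 were lost without 2 and 5 of the 6 arrays. Tyms, at 10.80, 10.63 and 10.78, was not called (adjusted p = 0.0581). This count was open to the fit: it was 11 with the compared groups alone, 13 with the 0 h arrays left out and 17 with array weights. Against 0 h, 7 members were called higher at 96 h and none lower, where 24.5% of all genes were called and 16.1% higher, and the median was 0.09. They were Orc1 (0.94), Rrm2 (0.46), Tk1 (0.41), Cdc6 (0.37), Mcm4 (0.35), Mcm10 (0.32) and Mcm2 (0.20), the calls of Mcm2 and Mcm4 being lost without 4 and 5 of the 6 arrays and with quantile normalization. Uhrf1 stood at 9.67, 9.81 and 9.67 and Pcna at 12.50, 12.41 and 12.37, both overlapping their 0 h values.

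The responses of the cell types were compared directly, as the stimulation effect in TMem minus that in TN, both cultured alone. At 18 h 17 members differed, 13 lower and 4 higher in TMem, where 28.9% of all genes differed and 14.7% were lower. Mcm2 differed by -1.26 (SE 0.10, adjusted p = 1.48e-10), Pole by -1.21 (SE 0.20) and Tk1 by -1.15 (SE 0.14). The opposite sign was found for Rpa2 (0.53), Rfc3 (0.49), Rrm2 (0.43) and Cdc6 (0.40). Of these, Cdc6, Rrm2 and Rfc3 were lost without 4, 6 and 6 of the 12 arrays. Without replicate 1 of unstimulated TN 18 differed, 16 lower and 2 higher, and Rfc3 was at 0.33 (adjusted p = 0.161 by limma). At 96 h all 35 responses were smaller in TMem, where 29.7% of all genes differed and 13.2% were lower, with a median of -1.83. Without replicate 1 of unstimulated TN all 35 were still called, and without replicate 2 Pole2 was lost (adjusted p = 0.0555 by limma). Centring called 34. Rrm2 differed by -4.29 (SE 0.15, adjusted p = 1.26e-18), Tyms by -3.63 and Uhrf1 by -3.41. Since TMem began at the high level, the differences at 18 h and at 96 h both hold the 0 h gap described above.

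At 18 h TMem still stood above TN for the entire set in separate cultures. All 35 members were called higher, where 28.9% of all genes were called and 15.4% higher, and the median was 1.46. Rrm2 was 26.9-fold higher, Mcm10 8.65-fold, Tyms 7.7-fold and Cdc6 6.75-fold, whereas Mcm2, with 11.16, 11.15 and 11.17 in TMem, was 1.57-fold higher. Myeloid markers summed to 2874 to 3270 in TMem and 1106 to 1187 in TN, NK cell markers to 5216 to 5596 and 2829 to 3230, and CD4 T cell markers to 445 to 480 and 708 to 775. Near background were 4 of the 6 NK genes in TMem and 5 in TN, and 4 of the 13 myeloid genes in TMem and 2 in TN, so the sums rest on the remaining genes. The part of these markers in the result was not tested. In the mix 34 of 35 were called higher, where 20.4% of all genes were called and 11.8% higher, with a median of 1.08. Pcna was the exception there, at 12.27, 12.08 and 12.16 in TN and 12.33, 12.35 and 12.37 in TMem (difference 0.18, SE 0.08, adjusted p = 0.135).

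At 96 h most of the distance was gone. In separate cultures 2 members were called higher in TMem than in TN and 5 lower, where 22.2% of all genes were called, 14.1% higher and 8.02% lower, and the median was -0.09. Orc1 stood at 8.08, 8.34 and 8.28 in TN and 8.92, 8.86 and 8.87 in TMem (0.65, SE 0.11, adjusted p = 7.25e-05), and Tk1 was 0.51 higher in TMem. Cdc45, with 9.58, 9.74 and 9.67 in TN and 9.33, 9.27 and 9.27 in TMem, was lower by 0.37 (adjusted p = 5.66e-04), as were Mcm7 by 0.31, Cdt1 by 0.31, Rfc2 by 0.30 and Mcm6 by 0.27. Quantile normalization called 2 higher and 12 lower. The Rfc2 call was lost without any of 5 of the 6 arrays. In the mix Orc1 was called higher in TMem (0.42) and Cdt1 lower (-0.27), where 10.6% of all genes were called, 6.68% higher and 3.94% lower. There quantile normalization called 1 higher and 7 lower. Orc1 was lost without replicate 1 or 3 of TN or replicate 1 of TMem, and Cdt1 without replicate 1 or 2 of TN or replicate 2 or 3 of TMem. The intervals of all 35 members at 96 h lay within -0.72 to 0.89 in separate cultures and within -0.53 to 0.66 in the mix. In separate cultures B cell markers summed to 865 to 924 in TMem and 3401 to 3732 in TN, mast cell markers to 368 to 389 and 841 to 986, CD4 T cell markers to 503 to 538 and 999 to 1028, and myeloid markers to 4150 to 4592 and 2990 to 3232. In the mix myeloid markers summed to 4700 to 4809 in TMem and 1329 to 1550 in TN, and B cell markers to 1111 to 1140 and 1452 to 1576. Their part in the result was not tested.

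The mixed cultures ask whether memory cells alter the response of naive cells activated beside them. Culture with TMem changed part of the set in TN cells at 18 h. Of the 35 members 9 were called higher in TN of the mix than in TN alone and none lower, where 14.4% of all genes were called and 6.30% higher. The median was 0.12, against -0.01 over all genes. Rfc3 stood at 8.63, 8.38 and 8.56 alone and at 9.38, 9.16 and 9.23 in the mix, 1.66-fold higher (log2 0.73, SE 0.13, adjusted p = 1.48e-04). Prim1 went from 8.48, 8.37 and 8.50 to 9.33, 8.96 and 9.17 (1.63-fold, adjusted p = 0.00305) and Rfc4 from 9.49, 9.48 and 9.51 to 10.24, 9.98 and 10.19 (1.56-fold, adjusted p = 0.00583). In these genes every mix array was above every separate array.

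The other called members of this comparison came from several roles. Fen1 was higher by 0.59 (SE 0.15), with values of 8.21, 8.20 and 7.99 in the mix, and by 0.38 (adjusted p = 0.0911, limma) without replicate 2 of TN alone. Dut, which hydrolyses dUTP, was higher by 0.50 (SE 0.14). Uhrf1 stood at 7.18, 7.12 and 7.05 alone and 7.63, 7.41 and 7.64 in the mix, higher by 0.44 (adjusted p = 1.41e-04). Rrm2, at 7.62, 7.37 and 7.18 in the mix, was higher by 0.38, Rrm1 by 0.36 and Orc1 by 0.36, and the Rrm2 arrays of the 2 cultures overlapped. Mcm2, Pole and Mcm5, the members with the largest rises at 18 h, were not called here. Mcm2 differed by 0.04 (interval -0.11 to 0.18), Pole by 0.01 (interval -0.28 to 0.31) and Mcm5, at 9.94, 9.91 and 10.03 in the mix, by 0.10 (interval -0.05 to 0.24). The part of the 96 h rise present at 18 h was -3.74% alone and 31.8% in the mix for Rfc3, and 59.3% and 61.1% for Mcm2, both taken as parts of the rise to 96 h in TN alone. Without replicate 1 of the 0 h group the parts were 3.72% and 36.7% for Rfc3.

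This count rested in part on single arrays. Without replicate 2 of TN alone at 18 h it was 4, which kept Prim1, Rfc3, Rfc4 and Uhrf1, and without replicate 1 of TN in the mix it was 5. Orc1 was lost without any of 5 of the 6 arrays. With array weights it was 16. Of the other replication genes 12 of 40 were called higher and 1 lower, among them Pold3 (0.32) and Orc6 (0.55) higher and Pold4 lower (-0.67), subunits of polymerase delta and of the origin recognition complex. Among S phase control genes 5 of 21 were higher and 3 lower. The lower ones were Cdkn1b (-1.01, SE 0.08, adjusted p = 2.17e-09) and the retinoblastoma relatives Rbl2 (-0.88) and Rbl1 (-0.63). Summed NK cell markers were higher in TN of the mix at 18 h than in TN alone (3853 to 4023 against 2829 to 3230, with 5 of 6 genes near background in both groups). CD4 T cell markers (599 to 652 against 708 to 775) and CD8 T cell markers (28044 to 28925 against 30214 to 31513) were lower. The ranges of B cell (1032 to 1151 against 1003 to 1060), myeloid (1130 to 1214 against 1106 to 1187) and mast cell markers (274 to 300 against 296 to 324) overlapped. Their part in the result was not tested.

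**Figure D5:**
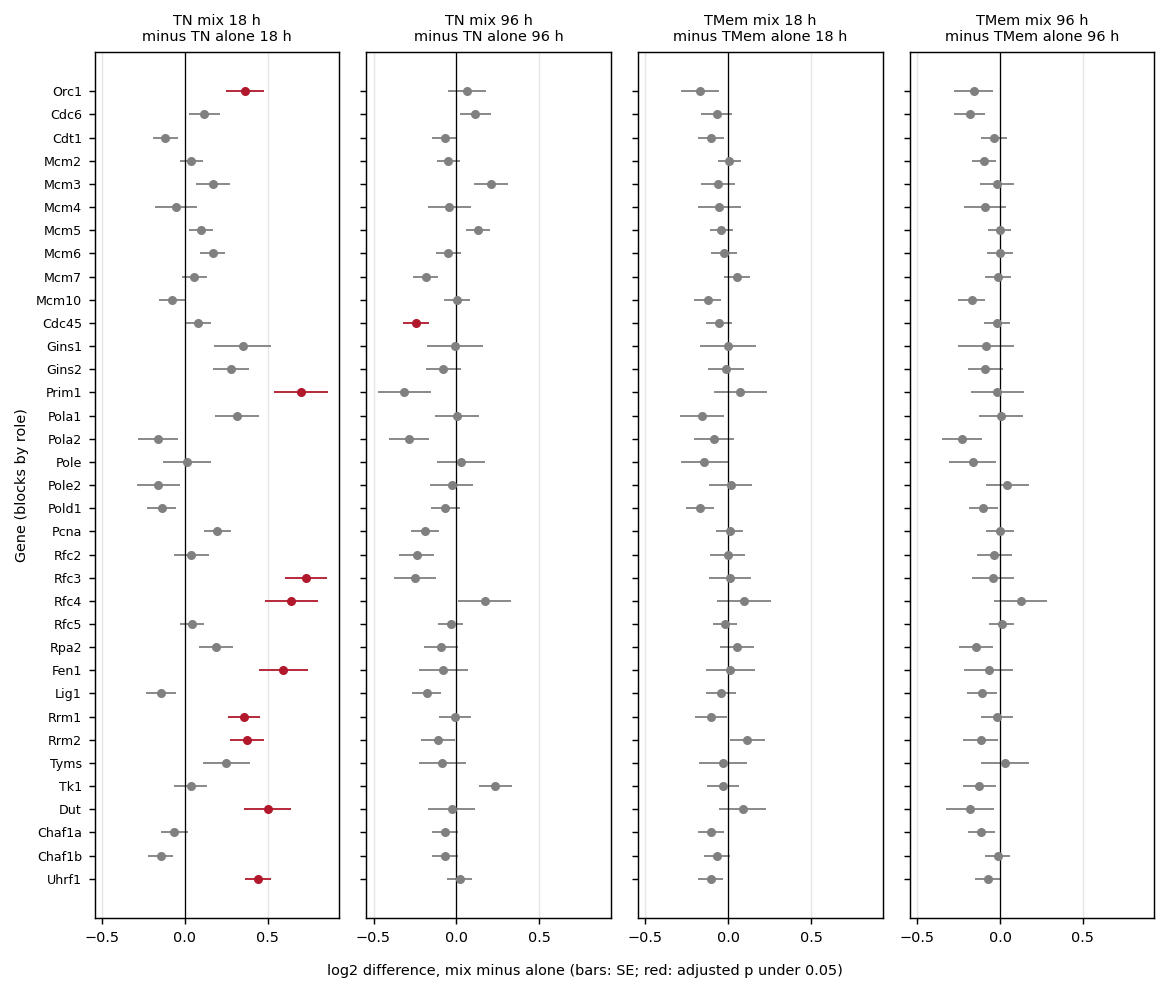
Log2 difference between mixed and separate culture (bars, SE; red, adjusted p under 0.05) of each replication gene in TN and TMem cells at 18 h and 96 h, n = 3 arrays per group. In TN cells 9 genes are red at 18 h, all to the right of 0, and 1 at 96 h; no gene is red in TMem cells.

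At 96 h the mixed and separate TN cultures differed little. Only Cdc45 was called, lower in the mix by 0.24 (values 9.43, 9.44 and 9.39 against 9.58, 9.74 and 9.67, adjusted p = 0.0462), where 10.6% of all genes were called and 3.62% lower. Without any of 5 of the 6 arrays no member was called. The same TN alone arrays enter the other comparisons of that group. Here the deviations of samples with the same replicate number correlated, at 0.489, 0.312 and 0.137 for replicates 1, 2 and 3. Replicate 3 of the mix correlated slightly more with another number (0.162), so the pairing is uncertain. With the replicate number as a block in limma no member was called (Cdc45 adjusted p = 0.0508). A fit of these 2 groups with the block, added after the data were seen, called Pola2, of polymerase alpha, instead (-0.29, adjusted p = 0.0464). The summed other-cell markers of the 2 groups differed as given above, and their part was not tested.

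In TMem cells the culture made no called difference. None of the 35 members was called by limma at 18 h, where 0.0301% of all genes were, and 0 had an unadjusted p under 0.05. At 96 h none was called, where 1.12% of all genes were, and 1 had an unadjusted p under 0.05, lower in the mix. The intervals of all 35 differences lay within -0.44 to 0.42 at 18 h and within -0.48 to 0.45 at 96 h, which leaves room for differences of up to these sizes.

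The difference between the mixing effects was tested itself. At 18 h the effect in TN exceeded that in TMem for 3 members, where 5.17% of all genes differed and 1.44% in that direction: Rfc3 (0.72, SE 0.18, adjusted p = 0.014), Uhrf1 (0.55, SE 0.11, adjusted p = 0.00164) and Rrm1 (0.46, adjusted p = 0.0449). Without replicate 2 of TN alone or replicate 2 of TMem alone at 18 h only 1 remained called. At 96 h none of the 35 differed, where 3.54% of all genes did, and 2 had an unadjusted p under 0.05. Within TN the mixing effect was smaller at 96 h than at 18 h for 6 members, where 12.4% of all genes differed and 4.26% in that direction. These were Prim1 (-1.02, SE 0.23, adjusted p = 0.00301), Rfc3 (-0.98, SE 0.18, adjusted p = 3.30e-04), Fen1 (-0.67), Rrm2 (-0.49), Uhrf1 (-0.42) and Pcna (-0.39). Prim1 at 96 h had 9.96, 10.20 and 10.24 alone and 9.36, 10.06 and 10.04 in the mix, where replicate 1 lay well below the other arrays. Without it 3 members were called, and likewise without replicate 3 of TN alone at 96 h, replicate 2 of TN alone at 18 h or replicate 1 of TN in the mix at 18 h.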

How the data were processed

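Total RNA of 30 sorted cell samples was amplified and hybridised to Affymetrix mouse gene arrays, per the labels' protocols. The authors deposited 1 log2 value per probe set and array; RMA and Partek are named in the submitters' processing notes, without versions or roles. They were used as deposited. Of 35556 rows, 21789 carried 1 gene symbol, 1621 several and 12146 none; rows with 1 symbol gave 19938 genes, and for the 999 genes with several rows (Tk1 and Pcna among the members) the row with the highest mean was used.

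limma (3.58.1, R 4.3.3) was fitted to all 30 arrays with 1 mean per group (20 residual degrees of freedom) for 15 comparisons of 2 groups and 5 differences between effects. Intervals are 95% intervals of the fit. The script was tested on simulated data. "Near background" means a group mean below the lower quartile of its arrays. The number of arrays limits the precision. Genes named outside the 35 are those of the listed pathways with the smallest adjusted p in a comparison (up to 4), plus a set of cell cycle genes named in advance; every array is given for representatives of each role and for the largest changes. The members and lists were chosen with earlier results of these data known.

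Same-numbered samples correlated over 0.1 in every pair (0.137 to 0.489) only for TN at 96 h, mixed against alone, so the numbers were taken as pairs there, from the data alone. Replicate 3 of the mix correlated slightly more with another number (0.162) than with its own (0.137). Alternatives were quantile normalization, centring, array weights, trend and robust moderation, a filter on low values (15965 genes), the mean over a gene's rows, only the groups compared, no 0 h arrays, the replicate block and each array left out. Promoter windows are RefSeq's, with GRCm38.p6 coordinates.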

Additional observations from a re-analysis of the deposited data

Results flagged for a closer look

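The response to stimulation differed between TMem and TN cells by a test of the difference itself. At 18 h 17 members differed, where 28.9% of all genes did. TMem minus TN values were -1.26 for Mcm2, -1.21 for Pole and -1.15 for Tk1. Mcm2 and Pole rose in TN cells and were near their 0 h level in TMem, while Tk1 fell in TMem. At 96 h 35 members differed, where 29.7% of all genes did, with -4.29 for Rrm2, -3.63 for Tyms and -3.41 for Uhrf1. The differences at 18 h and at 96 h both hold the gap between TMem and TN at 0 h.

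The effect of mixed culture differed between TN and TMem at 18 h for 3 members, where 5.17% of all genes differed. The values were 0.72 for Rfc3, 0.55 for Uhrf1 and 0.46 for Rrm1. Within TN the effect of mixed culture differed between 96 h and 18 h for 6 members, where 12.4% of all genes differed. The values were -1.02 for Prim1, -0.98 for Rfc3 and -0.67 for Fen1. With single arrays left out these tests called 1 to 4 and 3 to 7 members. The TN groups stimulated alone enter both tests, so these are not independent of each other.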

How the results depend on the processing

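No called difference of a member changed sign under any alternative run. Over all members, comparisons and alternatives, 10949 values kept their side of the threshold, 208 passed it newly and 183 no longer did. Calls of the 35 genes in TN between 0 h and 96 h and between 18 h and 96 h numbered 35 under all of them.
The number of called members moved by over 1.5 times as follows. With array weights it was 17 for TMem alone at 96 h against 18 h, 16 for TMem against TN alone at 96 h, 14 for TMem against TN in the mix at 96 h, 16 for TN mix against alone at 18 h, 7 for TN mix against alone at 96 h, 9 and 2 for the mixing effect in TN against TMem at 18 h and 96 h, and 17 for the mixing effect in TN at 96 h against 18 h. With quantile normalization it was 14 for TMem against TN alone at 96 h and 8 in the mix. With only the compared groups it was 11, 12 and 0 for TMem alone at 96 h against 18 h, TMem against TN alone at 96 h and the same in the mix, 0 for TN mix against alone at 96 h and 7 for the mixing effect at 18 h. With the 0 h arrays left out it was 13, 11 and 6 for those first 3, 4 for TN mix against alone at 96 h, 7 for the mixing effect at 18 h and 13 for the mixing effect in TN. For TN mix against alone at 96 h centring gave 0 and the mean over rows 2. The cause was not tested.
With the replicate number as a block, which pairs the samples only in that comparison, 0 members were called there and no other count moved by over 1.5 times.
Leaving out each array gave 1 to 3 calls for TMem against TN in the mix at 96 h, 4 to 9 for TN mix against alone at 18 h, 0 to 1 for TN mix against alone at 96 h, 1 to 4 for the mixing effect at 18 h and 3 to 7 for the mixing effect in TN.
Over all genes, array weights called 7546 for TMem alone at 96 h against 18 h (4868 in the fit reported), 8205 for TMem against TN alone at 96 h (4420), 6107 and 4909 for TMem against TN in the mix at 18 h (4070) and 96 h (2117), 4853 and 6343 for TN mix against alone at 18 h (2881) and 96 h (2117), 100 and 906 for TMem mix against alone (6 and 223), 2941 and 3202 for the mixing effect at 18 h (1031) and 96 h (705) and 5147 for the mixing effect in TN (2475). With only the compared groups it was 4091 for TMem against TN at 0 h (7151), 6699 for TMem against TN alone at 96 h, 36 and 435 for TMem mix against alone, and 1961 and 1185 for the mixing effects at 18 h and 96 h. With the 0 h arrays left out it was 3208 for TN mix against alone at 96 h, 41 and 507 for TMem mix against alone, 2089 and 1422 for the mixing effects and 3872 for the mixing effect in TN. Signals near background limit Orc1 at 0 h in TN.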
